A study of Mus musculus with 2 samples.

Results

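The genes described are the 6 listed genes of the mir-378, mir-193 and mir-365 families, namely Mir378a, Mir378b, Mir378c, Mir193b, Mir365-1 and Mir365-2. They were chosen by name, for what is known of them in fat and in mitochondrial metabolism, out of 2202 annotated miRNA genes, and the rule that picks them uses no measured value. Small RNA below 30 nucleotides was sequenced from the adrenal gland of adult male mice aged 8 to 10 months. The strain is labelled 5xFAD/CAST, where 5xFAD names a transgenic model of Alzheimer's disease and CAST a wild-derived inbred strain, and the labels do not say whether these animals carried the transgenes. There were 2 libraries, biological replicates 1 and 2 of 1 group, with separate sample records but the same donor record. It is therefore unknown whether they came from 2 animals, and the spread between them may be partly technical.

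Mir378a lies inside Ppargc1b, the gene of a coactivator that drives mitochondrial and oxidative genes, and its miRNA is known for regulating lipid and energy metabolism. Mir193b and Mir365-1 are neighbours, and their miRNAs are known from brown fat differentiation. Mir193a and Mir365-2 form a second, paralogous pair elsewhere in the genome. A miRNA gene makes a hairpin RNA, from which an enzyme cuts a 5p and a 3p arm of about the length sequenced here. Bases 2 to 8 of the mature arm, the seed, largely decide which messenger RNAs it pairs with.

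The sequences below show which of these genes a short read can tell apart, and the counts turn on that. They are RNA, 5′ to 3′, from RefSeq on GRCm38.p6, where 5 of the 6 genes were matched and Mir378a was not. Capitals in the mature sequences mark the seed.
miR-193b-3p: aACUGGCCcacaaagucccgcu
miR-193a-3p: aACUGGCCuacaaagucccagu
miR-193b-5p: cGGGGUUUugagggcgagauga
miR-193a-5p: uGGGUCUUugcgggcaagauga
miR-365-3p (the same from both genes): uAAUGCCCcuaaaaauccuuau
miR-365-1-5p: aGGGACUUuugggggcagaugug
miR-365-2-5p: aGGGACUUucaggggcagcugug
miR-378d: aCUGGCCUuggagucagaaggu

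The 3p arms of Mir193b and Mir193a have the same seed, ACUGGCC, and no other mature miRNA of the RefSeq table has it. Over 22 bases these arms differ at 3 positions, C9U, G20A and C21G, counted from the 5′ end with the base of miR-193b-3p first. The longest run that miR-193b-3p shares with the Mir193a hairpin is 10 bases, so reads of the 2 genes can be told apart. The mir-365 genes are the reverse case, because the whole 22 bases of miR-365-3p occur in both hairpins. Only their 5p arms differ, by U10C, G11A and A19C with the base of miR-365-1-5p first, and these share the seed GGGACUU.

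The hairpins of the mir-365 genes show this, with the mature arms in capitals. The longest run that the hairpins share is 27 bases and includes the 3p arm.
Mir365-1 hairpin: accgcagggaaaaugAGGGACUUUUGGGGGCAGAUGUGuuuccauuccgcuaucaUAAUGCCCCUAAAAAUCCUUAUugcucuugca
Mir365-2 hairpin: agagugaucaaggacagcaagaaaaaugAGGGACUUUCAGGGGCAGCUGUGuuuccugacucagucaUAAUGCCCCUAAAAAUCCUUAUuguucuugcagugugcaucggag

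Among the mir-378 genes, the mature miRNA of Mir378c has the seed CUGGACU, that of Mir378b UGGACUU and that of Mir378d, a related gene outside the list of 6, CUGGCCU. The heptamer ACUGGCC, which fills bases 2 to 8 of miR-193b-3p, begins at base 1 of miR-378d, so the mir-193 seed and the start of miR-378d are offset by 1 base. It is absent from miR-378b and miR-378c. Of the 21 bases of miR-378c, 20 in a row occur in the Mir378a hairpin, as do 19 of the 20 bases of miR-378b and 15 of the 22 bases of miR-378d.

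Levels below are CPM, the reads on the strand of a gene per 1000000 such reads of all miRNA genes in that library. These totals were 6783227 reads in replicate 1 and 3084602 in replicate 2. A read that fits several places was counted for no gene, and such reads made up 30.3% and 32.1% of each table. A count of 0 allows up to 3 reads, or 0.442 and 0.973 CPM. Intervals are exact 95% Poisson intervals, or exact 95% binomial intervals for ratios, and cover counting error only. As a check of the tissue, the neuroendocrine marker Mir375 stood at 58718 and 82443 CPM. The endothelial marker Mir126a stood at 92610.5 and 52519.3 CPM and the smooth muscle marker Mir143 at 28851 and 25009 CPM. The summed CPM of 9 striated muscle genes was 5.45 and 4.21, which is a lower limit and no check of muscle, since 5 of the 9 (the mir-1 and mir-133 genes) share 20 bases with a copy. The liver marker Mir122 stood at 257 and 57.7 CPM.

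The 6 genes together held 0.339% ± 0.0265 of the uniquely assigned miRNA reads (SD, n = 2), and almost all of it came from Mir378a. Reads of miR-365-3p fit both mir-365 genes and are in none of the values of this paragraph. The 6 genes summed to 3201 CPM in replicate 1 and 3576 CPM in replicate 2, of which Mir378a made up 98.2% and 99.0%. Above 2 CPM in both replicates, the limit used for detection, were 3 of the 6: Mir378a, Mir193b and Mir365-2. Over all annotated genes, 334 of 2202, or 15.2%, passed the same limit.

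**Figure D1:**
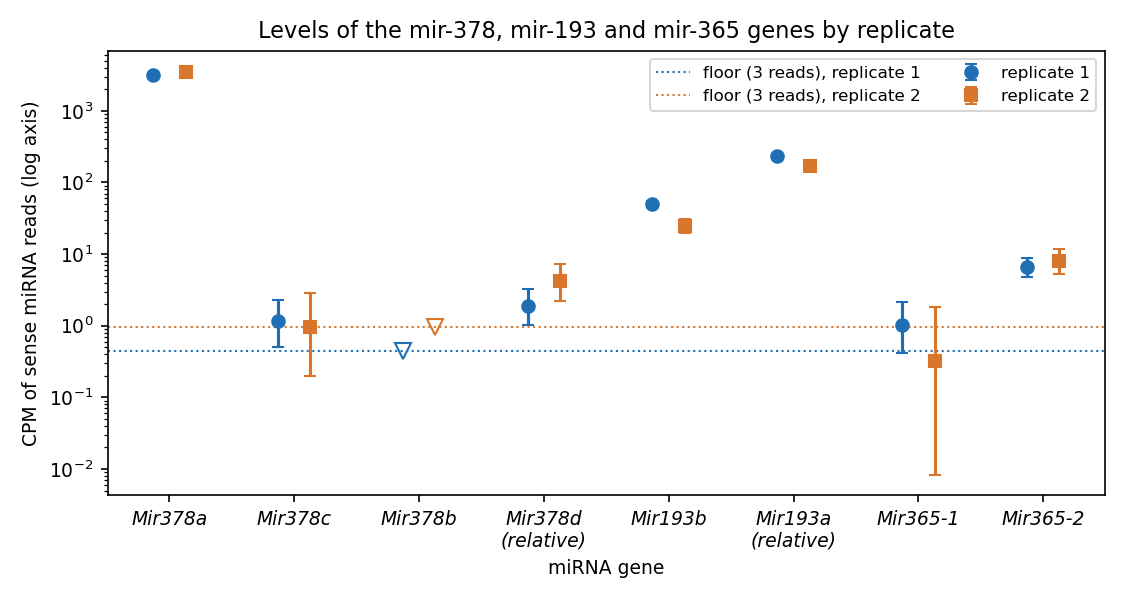
CPM on a log axis for the 6 genes and the relatives Mir193a and Mir378d, with replicate 1 as circles, replicate 2 as squares and bars for 95% Poisson intervals. Open triangles mark 0 reads, drawn at the level of 3 reads (dotted lines), and Mir378a stands above all others at 3142 and 3542 CPM.

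Mir378a (ENSMUSG00000105200.1) occupies chromosome 18 from 61397835 to 61397900 of GRCm38, minus strand, within an intron of Ppargc1b and on its strand. It had 21315 reads in replicate 1, or 3142 CPM (3100 to 3185), and 10925 reads in replicate 2, or 3542 CPM (3476 to 3609). The mean was 3342 ± 282 CPM (SD, n = 2), a coefficient of variation of 8.45%. By uniquely assigned reads, both libraries placed it alike, 40th and 37th of all miRNA genes. Genes that share sequence with a copy lose reads in this count, so its rank by all reads is not known. The count of Mir378a is itself a lower limit, since reads that match both Mir378a and Mir378c were assigned to neither.

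All of these reads depend on counting by strand. The annotation places Gm25301, a predicted miRNA gene of 113 bases, on the opposite strand over the whole of Mir378a. In the deposited column that ignores strand, Mir378a is listed with 0 reads in both replicates, because its reads overlapped 2 genes and were set aside as ambiguous. They made up 2.44% and 3.98% of all reads set aside in this way. On its own strand Gm25301 had 0 reads in both libraries.

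No other mir-378 gene was above 2 CPM in both replicates. Mir378c, on chromosome 14 at 46954830 to 46954928 on the minus strand, opposite an intron of Samd4, had 8 reads in replicate 1 and 3 in replicate 2. This gave 1.18 CPM (0.509 to 2.32) and 0.973 CPM (0.201 to 2.84), so its intervals overlapped. Mir378b, on chromosome 11 at 88352773 to 88352864, opposite an intron of Msi2, had 0 reads in both replicates. Of the 20 bases of its mature miRNA, 19 in a row occur in the Mir378a hairpin. Reads within that run would have been counted for neither gene, so the 0 sets no upper limit on the gene as a whole. A read of all 20 bases does not occur in that hairpin. Mir378d, on chromosome 10 and outside annotated genes, had 13 reads in each library, or 1.92 (1.02 to 3.28) and 4.21 (2.24 to 7.21) CPM, above the limit in replicate 2 alone. Mir378a exceeded Mir378c 2664-fold (1352 to 6172) in replicate 1 and 3642-fold (1246 to 17662) in replicate 2. Both counts lack the reads that fit both genes. Whether misread Mir378a reads are among the 8 and 3 reads of Mir378c was not tested.

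Mir193b (ENSMUSG00000076972.2), on the plus strand of chromosome 16 at 13449523 to 13449601, came second of the 6 by mean CPM of uniquely assigned reads. Its counting intervals lay above those of Mir365-2, Mir365-1 and Mir378c in both libraries. The rule given below, on gaps in CPM on the linear scale, did not separate it from these genes. It lies opposite an intron of the antisense RNA gene Gm15738 and in no annotated gene of its own strand. It had 339 reads in replicate 1, or 50.0 CPM (44.8 to 55.6), and 76 reads in replicate 2, or 24.6 CPM (19.4 to 30.8). The intervals did not overlap, and the mean of 37.3 ± 17.9 CPM (SD, n = 2) had a coefficient of variation of 48.0%. By uniquely assigned reads it ranked 202nd and 229th of all miRNA genes. Mir378a exceeded it 62.9-fold (56.5 to 70.2) in replicate 1 and 144-fold (115 to 183) in replicate 2.

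Its paralog Mir193a, which has the same 3p seed, was higher in both libraries. Mir193a (ENSMUSG00000065395.1), on chromosome 11 at 79711969 to 79712034 and outside other annotated genes, had 1601 and 528 reads. These gave 236 CPM (225 to 248) and 171 CPM (157 to 186), with a mean of 204 ± 45.9 CPM (SD, n = 2). Mir193a was 4.72-fold (4.20 to 5.33) above Mir193b in replicate 1 and 6.95-fold (5.45 to 8.96) in replicate 2. Both gaps were larger than the replicate difference of either gene. The counts do not separate 5p from 3p arms, so the share of the common seed in them was not measured.

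The mir-365 genes were far lower, and their order is that of reads unique to each. Mir365-2 (ENSMUSG00000065489.1), on chromosome 11 at 79726400 to 79726511 and outside other annotated genes, had 45 and 25 reads. These gave 6.63 CPM (4.84 to 8.88) and 8.10 CPM (5.24 to 12.0), so its intervals overlapped. Mir365-1 (ENSMUSG00000065449.1), on chromosome 16 at 13453840 to 13453926 and also opposite an intron of Gm15738, had 7 reads and 1 read, or 1.03 (0.415 to 2.13) and 0.324 (0.00821 to 1.81) CPM. Mir365-2 was 6.43-fold (2.88 to 16.9) above Mir365-1 in replicate 1 and 25.0-fold (4.09 to 1026) in replicate 2. Reads of the common 3p arm printed above fit both genes and were counted for neither, so both values are lower limits and the level of miR-365-3p was not measured.

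Within each pair of neighbours the mir-193 gene was counted above the mir-365 gene. Mir193b starts 4317 bases before Mir365-1 and stood 48.4-fold (23.2 to 121) above it in replicate 1 and 76.0-fold (13.2 to 3041) in replicate 2. Mir193a starts 14431 bases before Mir365-2 and stood 35.6-fold (26.5 to 49.0) and 21.1-fold (14.1 to 32.9) above it. Each ratio has a denominator that lost the reads of miR-365-3p.

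**Figure D2:**
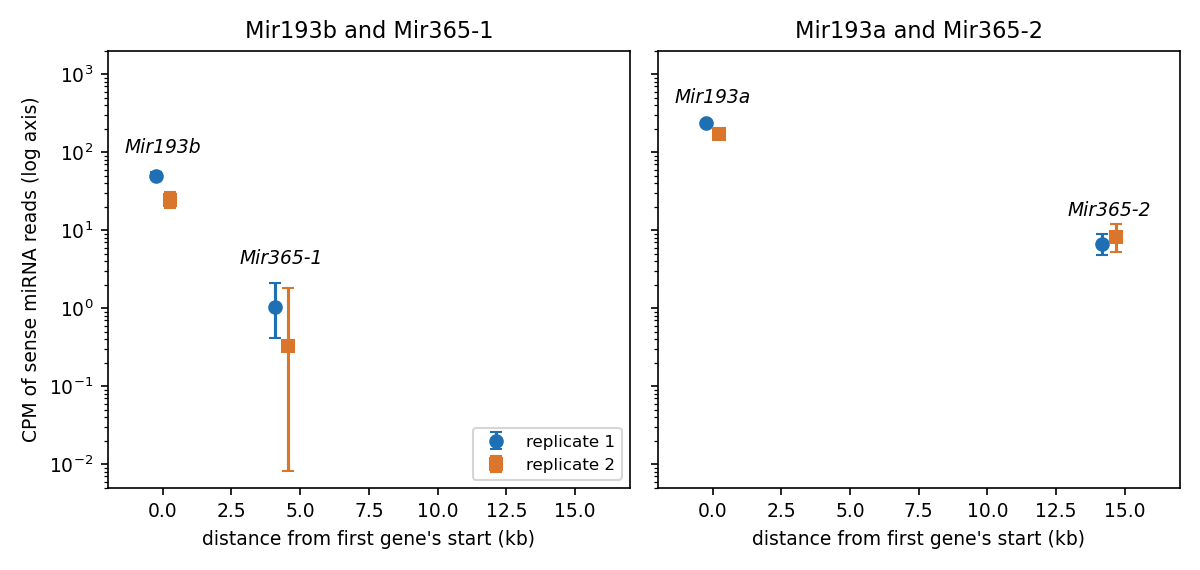
CPM on a log axis against the distance in kb from the start of the first gene, for Mir193b with Mir365-1 (left) and Mir193a with Mir365-2 (right), with circles for replicate 1, squares for replicate 2 and bars for 95% Poisson intervals. The mir-193 gene stands above the mir-365 gene at both loci and in both replicates, and the mir-365 counts hold unique reads only.

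The order of the genes by uniquely assigned reads was partly resolved. Mir378b was left out, since its 0 reads set no upper limit, which left 5 genes and 10 pairs. A pair counted as ordered when both replicates agreed on it, with each gap in CPM, on the linear scale, wider than the change of either gene in CPM between replicates, and this held for 6 of the 10. Mir378a was above each of the other 4. Mir365-2 was above Mir365-1 and Mir378c. Mir193b was not separated by this rule from Mir365-2, Mir378c or Mir365-1, since its own replicates differed by more CPM than the gap in replicate 2. Its counting intervals lay above theirs in both libraries.

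The replicates were compared over the 280 genes with a mean of at least 10 CPM, which 2 of the 6, Mir378a and Mir193b, reached. A gene was called when Fisher's exact test (two-sided, on its reads in both libraries) gave an adjusted p under 0.05 and its log2(CPM + 1) differed by at least 1. This compares 2 libraries and not conditions. Of the 280 genes, 30 or 10.7% were called, 17 higher (6.07%) and 13 lower (4.64%) in replicate 2, and of the 2 members 0 were called. Scaling shifted that split, to 12 higher and 17 lower with TMM factors and 8 higher and 17 lower with DESeq2 size factors. By the adjusted p alone, 69.3% of the 280 genes and both members passed.

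Mir378a was 0.17 higher in log2 in replicate 2 (counting interval 0.139 to 0.206, adjusted p = 1.9e-23, Fisher's exact test with Benjamini-Hochberg adjustment). This was below the median absolute difference of the 280 genes, 0.276. It was 0.036 with DESeq2 size factors, with an adjusted p of 0.051 in that exact test. Mir193b fell below its replicate 1 level in replicate 2, with a log2 difference of −0.99 (adjusted p = 7.9e-09 in the same Fisher's exact test). Without the added count of 1 it was −1.02 (counting interval −1.40 to −0.66), a 2.03-fold difference. It thus lay just inside the limit of 1 and was larger than most, with 89.3% of the 280 genes at or below its absolute value. The call for Mir193b depended on the setting: it was called under 5 of the 7 alternatives that tested it, with values from −1.12 to −0.89 over all settings. The liver marker Mir122 was also lower in replicate 2, by −2.14 in log2, and its part in the Mir193b value was not tested.

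**Figure D3:**
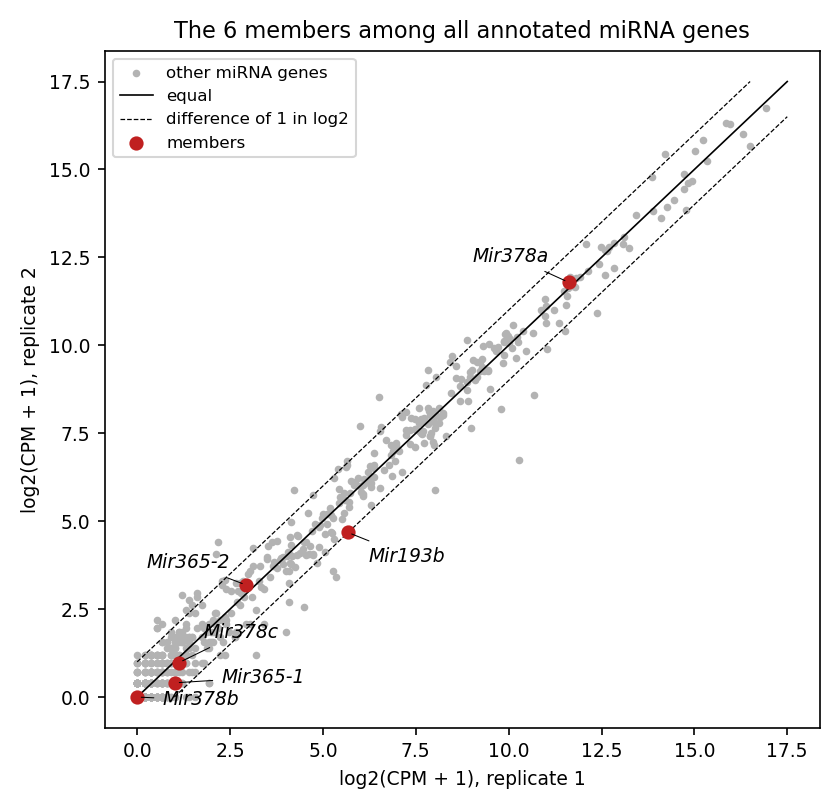
log2(CPM + 1) in replicate 2 against replicate 1 for all 2202 miRNA genes, with the 6 members in red, a solid line for equality and dashed lines for a difference of 1. Mir378a lies near the line of equality and Mir193b on the lower dashed line, at a difference of −0.99.

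Mir193a was also lower in replicate 2, with a log2 difference of −0.46 (adjusted p = 1.5e-10, Fisher's exact test), and was not called. The ratio of Mir193a to Mir193b therefore moved from 4.72 to 6.95, and its counting intervals in the 2 libraries did not overlap. Neither mir-365 gene reached the mean of 10 CPM. Tested without that limit, where 7.11% of 703 genes were called, both had an adjusted p of 0.76 by Fisher's exact test. Mir378c had an adjusted p of 1.0 there. The counting interval of the log2 difference ran from −0.48 to 1.02 for Mir365-2 and from −2.83 to 1.78 for Mir378c. Both intervals include 0 and a 2-fold higher level in replicate 2, so neither was detectable as a difference at this depth.

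**Figure D4:**
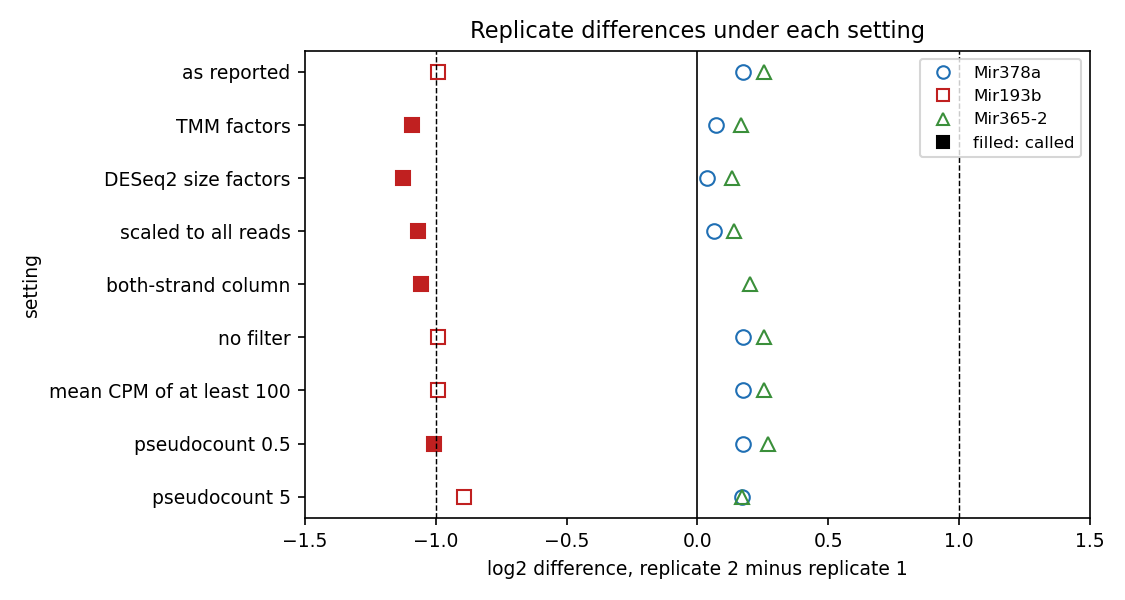
The log2 difference, replicate 2 minus replicate 1, of Mir378a (circles), Mir193b (squares) and Mir365-2 (triangles) under each setting, filled where called, with dashed lines at −1 and 1. Mir193b lies between −1.12 and −0.89 and is filled in 5 rows, it was not tested at a mean CPM of at least 100, and Mir378a has no point in the both-strand column, where its count is 0.

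The genes closest to each member by level were found as the smallest distance of log2(CPM + 1) over the 2 libraries. Around Mir378a they were Mir320 (distance 0.137), Mir130a (0.159) and Mir21a (0.164), at 3361, 3229 and 3090 CPM in replicate 1 and 3313, 3940 and 3166 CPM in replicate 2. Around Mir193b they were Mir129-1 (0.403), Mir449a (0.423) and Mir467c (0.435), at 44.5, 38.0 and 36.7 CPM in replicate 1 and 32.1, 21.7 and 24.3 CPM in replicate 2. With 2 libraries this compares levels alone.

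Other miRNA genes known from fat cells and thermogenesis gave a frame for these values. All 22 listed besides the 6 members were detected, with a median of 197 CPM, beside 15.2% detected over all annotated genes. The 2202 annotated genes include 1499 with 0 reads in both libraries, so this comparison says nothing about fat. The list was compiled by name and was not tested for being particular to fat. Among the 22, only Mir26b exceeded Mir378a by mean CPM, while 18 exceeded Mir193b. Mir26b stood at 19051 and 44353 CPM, Mir27b at 3062 and 2710, Mir328 at 2374 and 2063, and Mir34a, a p53 target, at 2908 and 1364 CPM. Mir378a and Mir27b did not keep one order beyond the replicate difference of Mir378a, at 3142 against 3062 CPM in replicate 1. Of the 22, 2 were called higher in replicate 2 (Mir26b and Mir26a-1) and 1 lower (Mir34a), beside 10.7% over the 280 genes. Their median log2 difference was 0.16, beside 0.01 over the 280. In the list, 10 genes have a run of 20 bases in common with some other hairpin, which makes their counts minimum values.

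**Figure D5:**
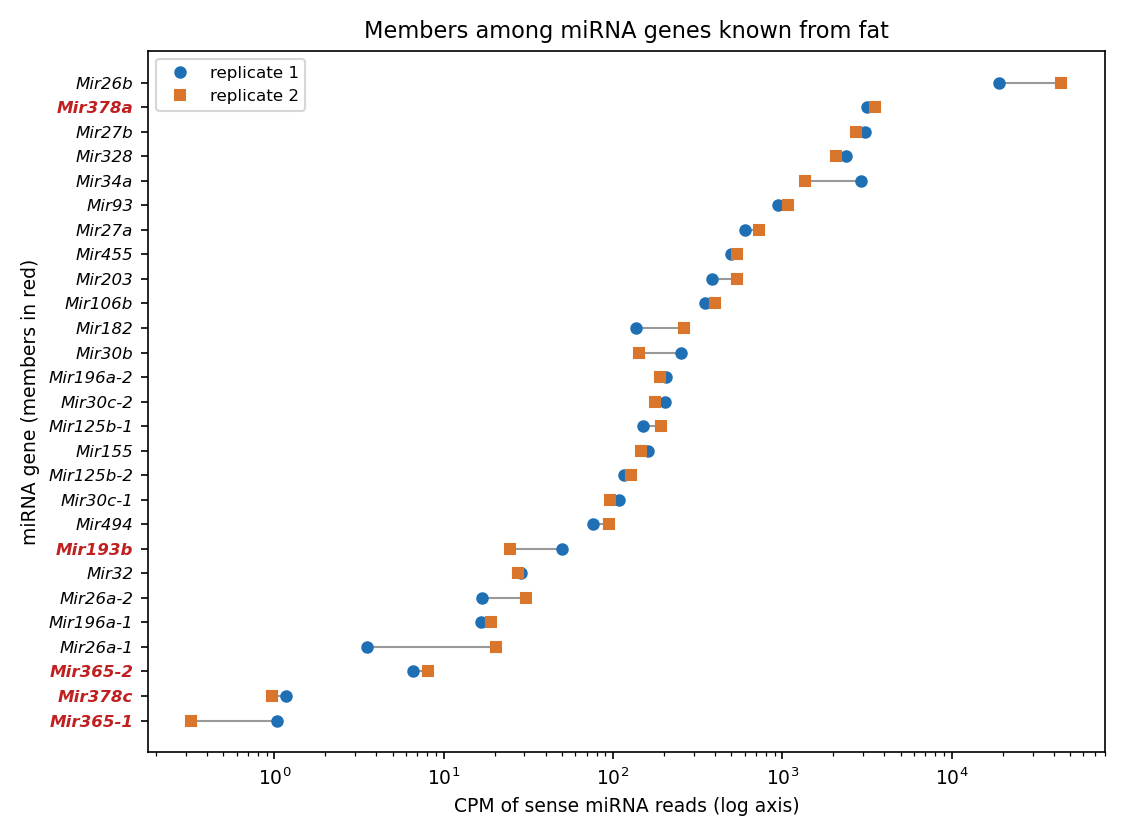
CPM on a log axis for the 22 other genes known from fat and the 5 members with reads (red labels), ordered by mean, with circles for replicate 1, squares for replicate 2 and a line joining them. Mir378a is second to Mir26b, and Mir193b, Mir365-2, Mir378c and Mir365-1 lie toward the bottom.

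A list of 16 miRNA genes of lipid and white fat metabolism gave a like picture. Of these, 14 were detected, beside 15.2% of all annotated genes, with a median of 154 CPM over the 16. The annotated genes again include the 1499 with 0 reads, so this comparison says nothing about fat either. Above Mir378a by mean were Mir143 at 28851 and 25009 CPM and Mir130a at 3229 and 3940 CPM. Mir21a at 3090 and 3166 CPM and Mir185 at 1044 and 1169 CPM came next, and 12 of the 16 were above Mir193b. Mir143 was also listed as a smooth muscle marker, and which cells gave its reads was not tested. Among the 13 tested, 1 was called higher in replicate 2 (Mir148a) and 2 lower (Mir107 and the liver miRNA gene Mir122). Over the 280 genes, 10.7% were called in either direction. Mir107 shares a run of 20 bases with Mir103-1 and Mir103-2, so the counts of these genes are minimum values.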

How the data were processed

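The authors deposited raw read counts per miRNA gene for each library, in columns for both strands, the strand of the gene and the opposite strand. The annotation was GENCODE M21 on mm10, per the notes deposited with each table. The sources used here do not name the aligner or trimming, and the strand columns were identified from their layout. Sense counts were scaled to CPM, with totals of 6783227 and 3084602 reads and the mapping lines of unassigned reads left out.

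Names, positions and overlaps came from GENCODE M21 (GRCm38), and mature sequences from RefSeq (GRCm38.p6). Hairpins sharing 20 bases, 1084 of 2202, were marked from GENCODE transcripts. Fisher's exact test (scipy 1.17.1) with Benjamini-Hochberg adjustment ran over all genes with a mean of at least 10 CPM. edgeR 4.0.16 gave the common coefficient of variation, 30.1% over 280 genes, and TMM factors. DESeq2 1.42.0 gave size factors. With 1 group no contrast could be fitted. The calling by Fisher's exact test was tried on simulated Poisson counts. These lack the spread between replicates seen here, so the trial does not show how the calls fare with it. The edgeR estimate was tried on counts simulated with a set spread, and the DESeq2 size factors were not tried.

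The text names the 6 members, genes sharing sequence, overlap or locus with them, the 3 nearest in level and up to 4 genes of each list, plus called list genes, which were named after their values were seen. Although the rule for members uses names alone, the members, lists and tests were chosen with earlier results of these data known.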

Additional observations from a re-analysis of the deposited data

Results flagged for a closer look

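Reads appeared in a column that the levels above do not use. For Gm25301, the predicted gene opposite Mir378a, the opposite-strand column listed 21315 reads in replicate 1 and 10925 in replicate 2, above the 3 reads that a count of 0 allows. Gm25301 covers the whole of Mir378a on the other strand, and these numbers equal the sense counts of Mir378a in each library. They are thus the Mir378a reads listed again, and Gm25301 had 0 sense reads.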

How the results depend on the processing

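Scaled to all reads in place of miRNA reads, the 6 genes summed to 1673 CPM in place of 3388, since the divisor is larger. In the column for both strands the sum fell to 52.4 CPM and the ratio of Mir378a to Mir193b to 0, because Mir378a is listed at 0 there. The number of genes called between the replicates, 30, became 50 with no filter and 19 at a mean CPM of at least 100, where 703 and 173 genes were tested. Mir193b was called at −1.09 with TMM factors, −1.12 with DESeq2 size factors, −1.07 scaled to all reads, −1.06 in the column for both strands and −1.01 with a pseudocount of 0.5. The median log2 difference of tested genes was −0.089 with TMM factors and −0.12 with DESeq2 size factors, and relative to it Mir193b stood at −1.0 under both. Leaving out 1 replicate at a time gave sums of 3201 to 3576 CPM and ratios of Mir378a to Mir193b of 62.9 to 144, with 3 members detected each time. The common coefficient of variation from edgeR was 30.3% over 173 genes with a mean CPM of at least 100. It was 31.4% over 414 genes at a limit of 1, and both limits were chosen after seeing the data. This is 1 fitted value for a set of genes, unlike the SD over the mean given for Mir378a and Mir193b. No paired analysis was possible because there is 1 group. Mir365-1, Mir378c and Mir378b had at most 8 reads in a library, and reads they share with another gene were counted for none, whatever the depth.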
